A study of Mus musculus with 4 samples.

Results

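Integrins are the receptors by which cells hold on to the matrix around them. Each is a pair of an alpha and a beta subunit, and Itgb1 is the beta subunit with the widest choice of partners. Laminins are trimers of an alpha, a beta and a gamma chain that polymerize into the sheet of a basement membrane, and nidogens link that sheet to the collagen IV network. In a growing incisor a basement membrane lies between the dental epithelium, whose ameloblasts make enamel, and the dental mesenchyme, whose odontoblasts make dentin, and other basement membranes surround vessels and nerves. All genes of the files' gene table with the symbols Itga or Itgb plus a number or letter, Lama, Lamb or Lamc plus a number, and Nid plus a number were taken, which gave 39 of 32285 genes. These were 18 integrin alpha subunits, 8 integrin beta subunits, 11 laminin chains and 2 nidogens.

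Proximal tissue of lower incisors was collected at postnatal day 15 from WT mice and from mice with a knockout allele of Din (the Din-KO group), digested with liberase, and profiled as single cells by 10x Genomics 3' sequencing, with 2 libraries per genotype. The Din-KO allele came from a gene-trap embryonic stem cell clone and was made a conventional one by germline Cre, which removed an exon of Din in all tissues. How many mice went into a library is not stated in what was read here, and p-values then measure only the spread between libraries. Levels are in CPM, the unique molecular identifiers (UMIs) of a gene per 1000000 UMIs of a class of cells in a library. Where 4 values follow a gene, they are WT replicates 1 and 2 and then Din-KO replicates 1 and 2, and ± is the SD over these 4 libraries beside a level and the SE beside a log2 fold change. This SE was derived from the edgeR test, as the absolute log2 fold change divided by the square root of its F statistic.

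The study's filters left 11310 cells, 1272 to 4575 per library, from 3257 to 6958 barcodes and 32198098 to 54348039 UMIs per library, and pairs of libraries shared 0 to 4 cell barcodes. Din itself was still counted in Din-KO, at 17.3 and 21 CPM against 33.1 and 24.6 in WT, and counts per gene do not show whether a read came from the removed exon, so they do not check the genotype. Classes were named from their markers. All markers were detected in every library in all classes except the secretory ameloblast-like (4 of 6), monocyte or dendritic-like (4 of 8) and neutrophil-like (8 of 10) cells. The same markers had named the classes, so mere detection is no independent support for the names. Each marker of the macrophage, endothelium and epithelium lists was detected in mesenchyme-like cells too, in some library. Mesenchyme-like cells numbered 7004, among them 4494 of a dental pulp-like, 1204 of a follicle-like and 558 of an odontoblast-like kind. The other 748 were given none of these kinds and counted among the remaining cells when the kinds were compared. There were also 580 epithelium-like (247 secretory ameloblast-like), 749 endothelium-like and 1413 macrophage-like cells. The small classes held 76 perivascular-like, 95 glia-like, 120 T or NK-like, 152 neutrophil-like, 162 monocyte or dendritic-like and 590 B-like cells, and 340 cells in 2 clusters got no name. The monocyte or dendritic-like cluster was led by Ly6c2 and Ccr2 but scored higher over all neutrophil markers than over its own, and the T or NK-like cluster was led by Gzma, Ccl5 and also by Prss34 and Mcpt8, genes of basophils. Both replicates 1 were richer in dental pulp-like cells than both replicates 2. In Din-KO they were 2107 of 2986 and 148 of 596 mesenchyme-like cells, in the order of the replicates. In a class as in bulk tissue, a lower level over all mesenchyme-like cells can mean fewer cells of 1 kind or less RNA per cell, which cannot be told apart there.

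The promoters of 4 members with different cell patterns are shown because these patterns are the subject below. They are Itgam and Itgax of myeloid cells, Itga4 of leukocytes and some mesenchyme-like cells, and Lama5 of vessels and epithelium. Each line gives the 130 bases from 150 to 21 bases before the annotated start, 5′ to 3′ on the strand of the gene (RefSeq, GRCm38.p6, where 24 of the 39 members had an entry). Capitals mark the AP-1 motif TGANTCA, the GC box GGGCGG and the PU.1 motif GAGGAAG on either strand.
Itgam (chr7:128062490-128062619, plus strand): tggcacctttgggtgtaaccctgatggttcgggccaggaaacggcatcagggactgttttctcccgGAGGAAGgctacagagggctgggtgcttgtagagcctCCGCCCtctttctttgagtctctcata
Itgax (chr7:128129400-128129529, plus strand): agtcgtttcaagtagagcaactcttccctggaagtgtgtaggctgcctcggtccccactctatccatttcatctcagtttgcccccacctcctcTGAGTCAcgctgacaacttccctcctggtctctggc
Itga4 (chr2:79255276-79255405, plus strand): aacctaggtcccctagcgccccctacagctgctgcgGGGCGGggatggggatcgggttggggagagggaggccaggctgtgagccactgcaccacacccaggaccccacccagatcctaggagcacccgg
Lama5 (chr2:180225880-180226009, minus strand): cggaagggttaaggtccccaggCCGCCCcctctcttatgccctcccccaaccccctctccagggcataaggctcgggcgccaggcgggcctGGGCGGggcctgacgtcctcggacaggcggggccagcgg
Itgam holds 1 PU.1 motif and 1 GC box in capitals, Itgax 1 AP-1 motif, Itga4 1 GC box and Lama5 2 GC boxes, none overlapping another. Over the 250 bases before each start, 6.75% of 32851 mouse promoters held the AP-1 motif, 32.7% the GC box and 10.6% the PU.1 motif. A match describes letters and is no evidence of binding.

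Members differed in the cell type of their highest level. In the 6 classes with at least 20 cells in every library, the mean level over the 4 libraries was highest in endothelium-like cells for 13 members, in epithelium-like cells for 7, in mesenchyme-like and in monocyte or dendritic-like cells for 6 each, in macrophage-like cells for 2 and in B-like cells for 0. The other 5 (Itga7, Itgad, Itgae, Itgb3 and Itgb8) stayed under 10 CPM in these classes. With the small classes included, 18 members had their highest level elsewhere. Perivascular-like and glia-like cells then held 7 each and T or NK-like cells 3 (Itgae, Itgb3 and Itgb7), while Itgad, with 4 UMIs in all cells, alone stayed under 10 CPM. With the WT libraries alone 1 member changed class (Itgb3), and with the Din-KO libraries alone 2 did (Itgb3 and Itga10). Mesenchyme-like cells were taken as a whole in this map. Their dental follicle-like kind had Nid1 above endothelium-like cells in every library, and Itgb5 within the range of macrophage-like cells. These values are given below.

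**Figure D1:**
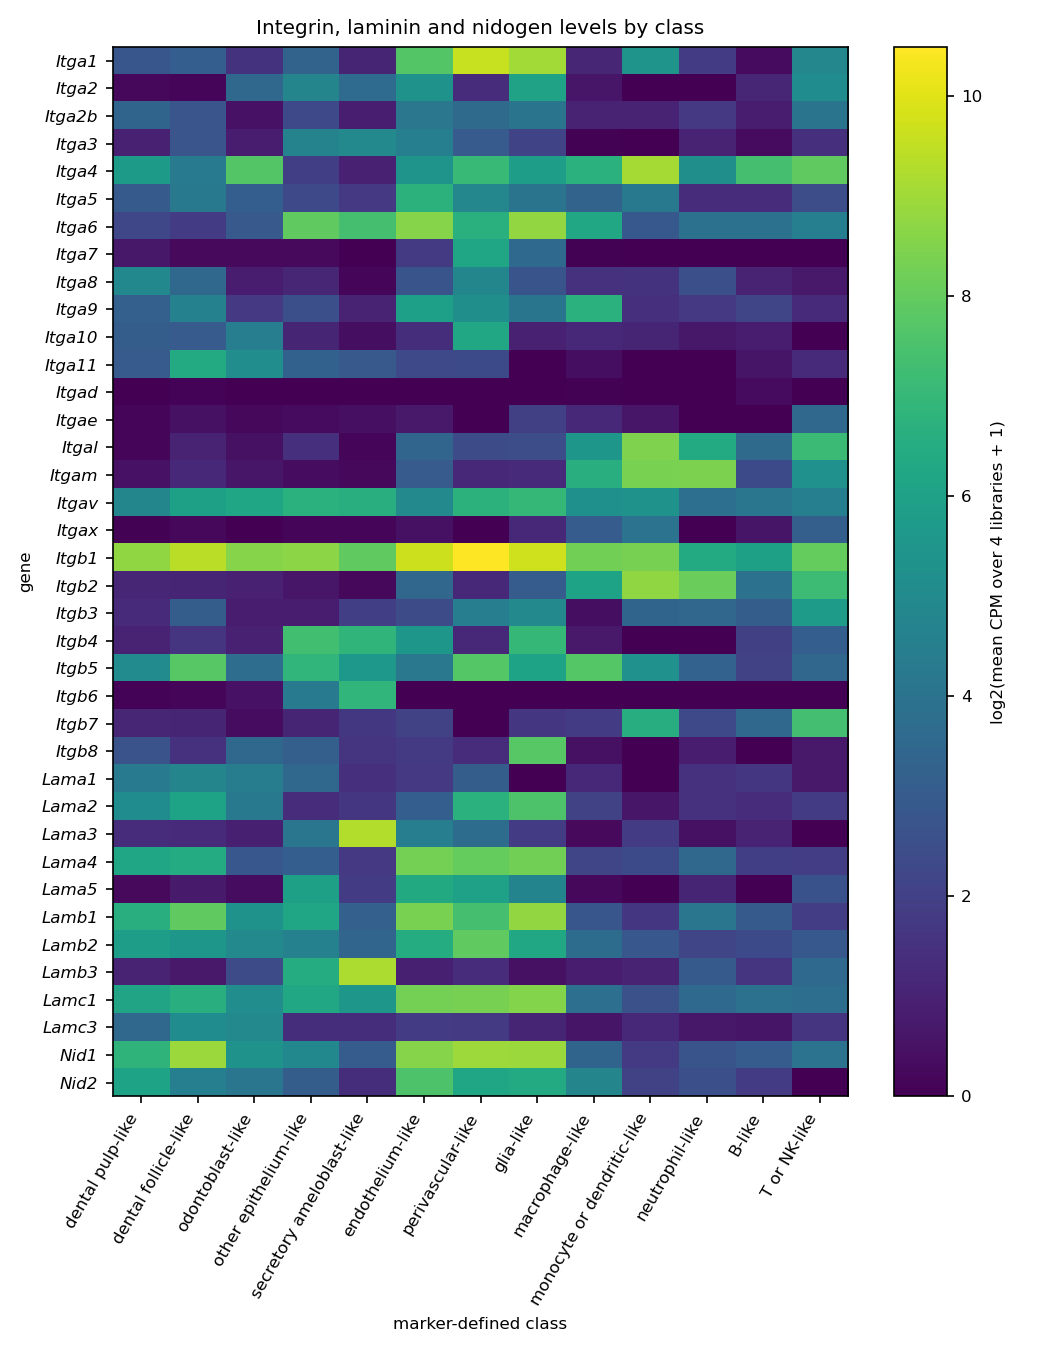
Level of 38 members (rows) in marker-defined classes (columns), as log2 of the mean CPM over 4 libraries plus 1. Lama3 and Lamb3 are brightest in the secretory ameloblast-like column, Itgal and Itgb2 in the monocyte or dendritic-like column, Itgb8 in the glia-like column, and Itgb1 is bright in every column.

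Each class was compared with the mesenchyme-like cells of the same libraries on summed UMIs, in edgeR's quasi-likelihood test with the library as a block and Benjamini-Hochberg adjustment over all genes of the fit. The members took no part in the clustering, but cells had been grouped on genes that vary with them, so these p-values describe groups made to differ. Genes other than the members that are compared below, such as ligands and basement membrane genes, were not left out of the clustering. Their p-values carry this limit more strongly. Libraries with under 20 cells of a class were left out, so perivascular-like cells were tested in the replicates 1 alone, glia-like and T or NK-like cells in the Din-KO libraries alone, and neutrophil-like cells without Din-KO replicate 1. In epithelium-like cells 10 of 32 members tested were higher and 15 lower, beside 15.8% and 21.7% of all genes. In endothelium-like cells 22 of 35 were higher and 9 lower (27.5% and 31% of all genes). Perivascular-like cells had 12 of 29 higher and 0 lower (3.19% and 1.71%), and glia-like cells 14 of 31 higher and 3 lower (5.87% and 4.84%). These 4 classes had a larger share of members than of all genes on the higher side. The same held for T or NK-like cells, while in monocyte or dendritic-like and neutrophil-like cells the share of members was near that of all genes, as given below.

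In leukocytes more members were lower than higher, T or NK-like cells aside, and more of all genes were lower than higher in each class too. Macrophage-like cells had 8 of 34 members higher and 18 lower (30% and 36.5% of all genes), and monocyte or dendritic-like cells 7 of 33 and 16 (17.2% and 36.5%). Neutrophil-like cells had 6 of 31 higher and 12 lower (14.7% and 20.9%), while of these 18 calls 4 were left without WT replicate 2, and leaving out Din-KO replicate 2 left 11. B-like cells had 6 of 33 higher and 21 lower (21.7% and 40.1%), and T or NK-like cells 9 of 32 and 8 (6.16% and 7.05%).

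Epithelium carried Lama3 and Lamb3, chains of the laminin that anchors epithelia, and Itga6 with Itgb4, the pair that binds it in hemidesmosomes. Over all epithelium-like cells Lama3 was at 55.3, 701, 297 and 471 CPM and Lamb3 at 104, 736, 274 and 513. WT replicate 1 was lowest for both, and it also had the fewest secretory ameloblast-like cells, 23 of 145 epithelium-like cells against 89 of 122 in WT replicate 2. It was the lowest library within secretory ameloblast-like cells too, with values given below. The part of the make-up in these levels was not tested. Against mesenchyme-like cells the log2 fold change was 8.38 ± 0.55 for Lama3 (adjusted p = 0.000171) and 8.60 ± 0.38 for Lamb3 (5.03e-05).

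The receptor subunits of epithelium varied less between libraries. Itgb4 was at 111, 133, 131 and 138 CPM (6.70 ± 0.23, adjusted p = 2.93e-05) and Itga6 at 173, 174, 207 and 244 (5.70 ± 0.18, adjusted p = 2.36e-05). Itgb6, a beta subunit of epithelia that pairs with Itgav, was at 49.6, 101, 71.4 and 52.4 CPM (8.92 ± 0.38, adjusted p = 3.99e-05), and Itgav at 86.2, 105, 92.4 and 115 (1.42 ± 0.17, adjusted p = 0.00128). Itga3, the alpha subunit of another laminin receptor, was at 18, 32.8, 27.9 and 34.7 CPM (3.89 ± 0.18, adjusted p = 6.11e-05). For these 5 genes the highest library was at most about 2 times the lowest, and the largest log2 fold change was that of Itgb6. The members most below the mesenchyme were Itga4 (−5.14 ± 0.24, adjusted p = 6.11e-05), Lama2 (−4.29 ± 0.39, adjusted p = 0.000525) and Nid1 (−4.03 ± 0.15, adjusted p = 3.73e-05).

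Within epithelium these laminin chains were concentrated in secretory ameloblast-like cells, the makers of enamel matrix. Lama3 was among the 10 leading genes of that cluster. It had not itself been used to form the cluster, but genes that vary with it had, so this is no independent support. Lama3 was at 204, 806, 673 and 781 CPM there and at 3.86, 29.5, 15.8 and 15.5 in the other epithelium-like cells. Lamb3 was at 194, 834, 535 and 802 CPM against 73.4, 114, 79.1 and 88. For both, every secretory ameloblast-like value lies above every value of the other epithelium-like cells. Itgb6 was likewise higher, at 144, 112, 136 and 84.6 CPM against 16.9, 29.5, 22.9 and 4.98.

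Lama5 and Lamb1, chains of laminins found under many epithelia, went the other way. Lama5 was at 0, 1.65, 3.34 and 5.26 CPM in secretory ameloblast-like cells, from 0 to 14 UMIs, and at 26.6, 103, 52.8 and 65.9 in the other epithelium-like cells. Lamb1 was at 4.2, 3.63, 6.68 and 18.8 CPM against 38.2, 94.9, 67.8 and 86.9. Neither gene overlaps between the groups of cells. Lamc1, the gamma chain that pairs with Lamb1, was at 22.4, 52.7, 59.6 and 48.9 CPM against 27.1, 143, 67.8 and 66.4, which do overlap.

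This division of the epithelium was added to the comparisons after values had been seen. Of 23 members tested 6 were higher and 4 lower in secretory ameloblast-like cells, beside 16.4% and 17.3% of all genes. The log2 fold change was 6.06 ± 0.19 for Lama3 (adjusted p = 1.14e-05), 3.54 ± 0.31 for Itgb6 (0.000402) and 3.25 ± 0.35 for Lamb3 (0.000739). It was −3.81 ± 0.47 for Lama5 (0.000818) and −2.58 ± 0.38 for Lamb1 (0.00247). The receptor pair did not pass, with 0.11 ± 0.19 for Itga6 (adjusted p = 0.675) and 0.25 ± 0.19 for Itgb4 (0.341). Without Din-KO replicate 1 the 10 calls fell to 6, and the losses included Itgav and Itgb5.

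**Figure D2:**
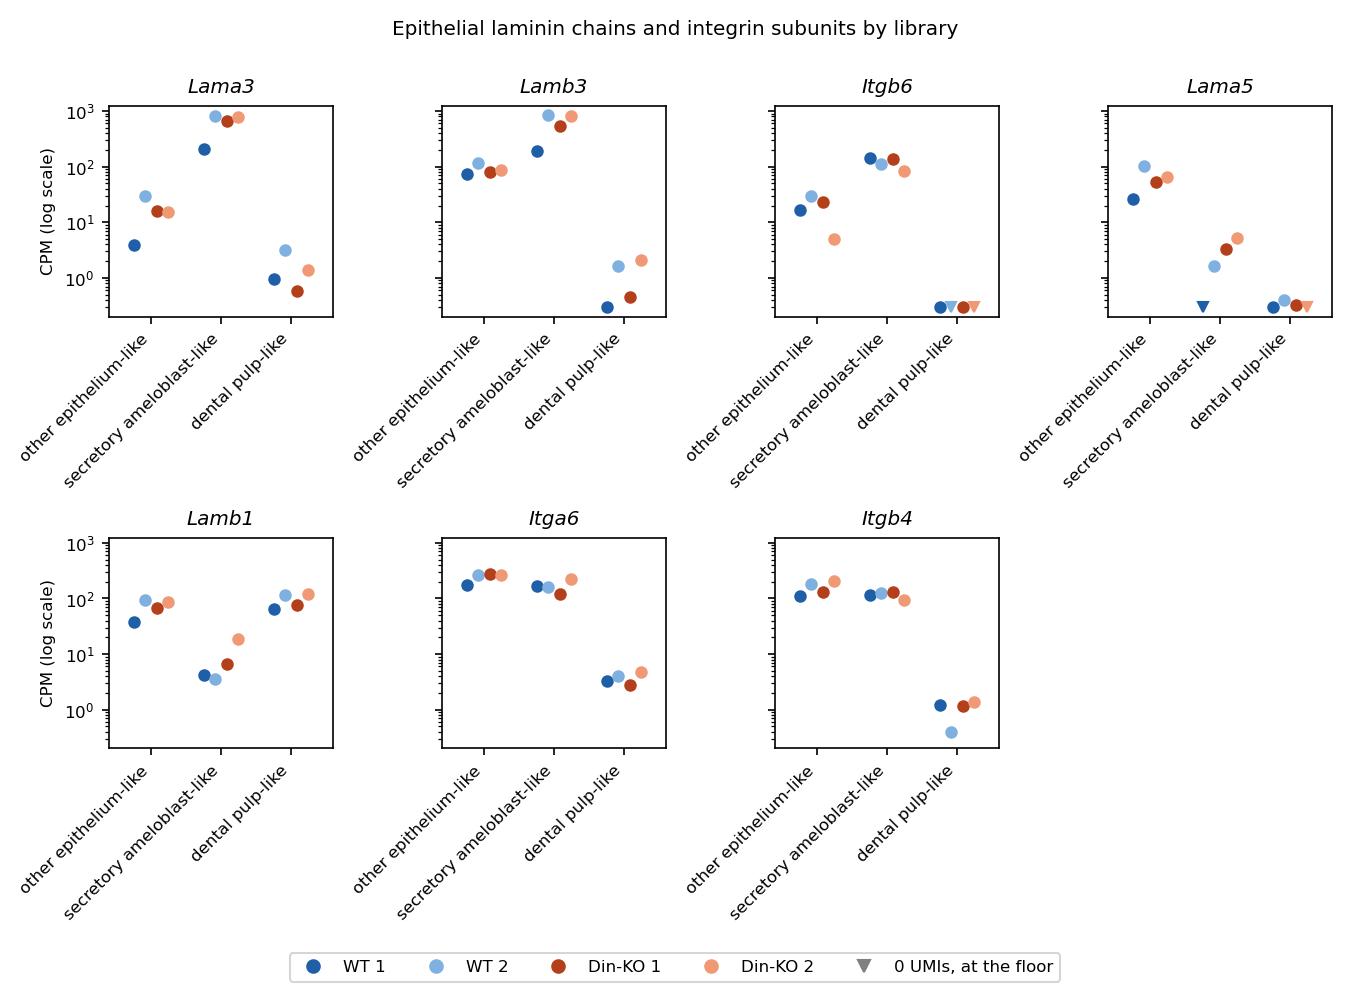
CPM on a log axis of 7 laminin chains and integrin subunits in other epithelium-like, secretory ameloblast-like and dental pulp-like cells, with 1 point per library (triangles: 0 UMIs, and values under 0.3 are drawn at 0.3). From other epithelium-like to secretory ameloblast-like cells Lama3, Lamb3 and Itgb6 are higher and Lama5 and Lamb1 lower in all 4 libraries, while the points of Itga6 and Itgb4 overlap.

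Single cells held both chains together. Lama3 and Lamb3 each had at least 1 UMI in 73.9%, 98.9%, 96.4% and 97.5% of secretory ameloblast-like cells in the 4 libraries, at medians of 20926 to 29474 UMIs per cell. In the other epithelium-like cells the share was 3.33% to 15.2% at medians of 6389 to 14534 UMIs. In dental pulp-like cells, which should lack these chains, it was 0% to 0.69% at medians of 6863 to 10005. After each cell had been thinned to 2000 UMIs the share was 8.7%, 68.5%, 43.6% and 53.8% in secretory ameloblast-like cells, 0% to 3.64% in the other epithelium-like cells and 0 in every library of dental pulp-like cells. Itga6 and Itgb4 were found together in 75% to 88.8% of secretory ameloblast-like and 49.6% to 65.5% of other epithelium-like cells, and in 5% to 8.7% and 5.83% to 15.2% after thinning. The order of these shares thus turned with depth, and no difference is read from it.

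Genes that act with the anchoring laminin were Cd151, Col17a1, Col7a1, Dst and Plec. In epithelium-like against mesenchyme-like cells their median log2 fold change was 1.95 beside −0.06 over all genes. Of the 5 genes 4 were higher and 0 lower, beside 15.8% and 21.7% of all genes. They were Col17a1, the transmembrane collagen of hemidesmosomes (8.20 ± 0.51, adjusted p = 0.000137), Col7a1 of anchoring fibrils (2.41 ± 0.28, adjusted p = 0.00131), Cd151, a tetraspanin that binds laminin receptors (1.95 ± 0.25, adjusted p = 0.00189), and Dst, a hemidesmosomal linker to keratin (1.56 ± 0.22, adjusted p = 0.00257). Col17a1 and Col7a1 had their highest mean level in epithelium-like cells. Cd151 did not, with a mean of 81.0 CPM there against 211 in endothelium-like, 196 in perivascular-like and 150 in glia-like cells, nor did Dst, at 316 CPM against 620 in glia-like cells. In secretory ameloblast-like against other epithelium-like cells Dst (1.59 ± 0.17, adjusted p = 0.000717) and Cd151 (0.96 ± 0.15, adjusted p = 0.0031) were higher and Col7a1 was lower (−2.67 ± 0.45, adjusted p = 0.00428). Of other basement membrane genes 9 of 13 were lower there and 1 higher (17.3% and 16.4% of all genes). The median was −2.22 beside −0.06 over all genes. The lowest were Col18a1 (−3.66 ± 0.30, adjusted p = 0.000327), Ntn4 (−3.44 ± 0.27, adjusted p = 0.000226), Col4a2 (−2.52 ± 0.63, adjusted p = 0.019) and Fbln2 (−2.40 ± 0.66, adjusted p = 0.0282). The higher one, named after its value was seen, was Hspg2, which encodes perlecan (1.16 ± 0.24, adjusted p = 0.00969).

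Endothelium-like cells held the chains of vascular laminins and both nidogens. Lama4, the alpha chain of vessel walls, was at 272, 361, 301 and 325 CPM (2.42 ± 0.09, adjusted p = 1.54e-06) and Lama5 at 63.9, 89.1, 65.6 and 105 (7.60 ± 0.19, adjusted p = 3.93e-07). Lamb1 was at 269, 418, 281 and 372 CPM (1.39 ± 0.12, adjusted p = 6.16e-05), Lamb2 at 86.5, 98.9, 87.1 and 86.4 (0.94 ± 0.12, adjusted p = 0.000545) and Lamc1 at 274, 333, 297 and 349 (2.17 ± 0.10, adjusted p = 2.85e-06). Every library of these 5 chains lies above the mesenchyme-like cells of the same library. Nid1 was at 287, 431, 299 and 506 CPM (0.80 ± 0.18, adjusted p = 0.00709) and Nid2 at 145, 173, 175 and 249 (2.32 ± 0.23, adjusted p = 0.000115). Nid1 was not particular to vessels. In every library it was higher still in dental follicle-like cells, whose values are given below.

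Among the receptors of vessels Itga6 was at 300.1, 443, 356 and 434 CPM (6.25 ± 0.17, adjusted p = 4.26e-07) and Itga1, a collagen-binding alpha subunit, at 180.0, 199.99, 196 and 235 (5.09 ± 0.12, adjusted p = 2.89e-07). Itga2, another collagen receptor, was at 35.8, 33.7, 41 and 48.5 CPM (4.33 ± 0.46, adjusted p = 0.000177), and Itga5, of the fibronectin receptor, at 74.1, 164, 77.3 and 109 (3.21 ± 0.17, adjusted p = 6.38e-06). Their partner Itgb1 was at 1140, 792, 728 and 604 CPM (0.64 ± 0.11, adjusted p = 0.00231), with WT replicate 1 highest. Itgb4, the other partner of Itga6, was higher than in mesenchyme-like cells too (4.78 ± 0.13, adjusted p = 5.1e-07). Itga2b, known from platelets, was at 17.9, 12.6, 18.9 and 17.4 CPM (1.35 ± 0.22, adjusted p = 0.00147) and lost its call after thinning to 2000 UMIs, at a log2 fold change of 0.49. Of other basement membrane genes 13 of 20 were higher and 4 lower (27.5% and 31% of all genes). The median was 1.60 beside −0.07 over all genes. Those with the largest changes were Col15a1 (7.47 ± 0.25, adjusted p = 8.94e-07), Col18a1 (6.0 ± 0.54, adjusted p = 7.58e-05), Col4a1 (4.82 ± 0.24, adjusted p = 4.89e-06) and Col4a3, which had 0 UMIs in mesenchyme-like cells and gets no fold.

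The 3 endothelium-like clusters differed, given here as levels pooled over libraries and without a test. The cluster led by Gja4, an arterial connexin (152 cells), had Itga1 at 325 CPM, Lama5 at 123 and Lama3 at 63.1, and the cluster led by Gpihbp1, a capillary gene (475 cells), had 163, 68.3 and 10.3. The cluster led by Vwf (122 cells) had Nid2 at 30.5 CPM, below 224 and 199 in the other two. It also held the leukocyte subunits Itgal at 33.5 CPM, Itgb2 at 34.1 and Itgam at 26.9. In that cluster all 8 macrophage markers were detected, with a sum of 868 CPM against 344 and 137 in the others, and Ptprc, a gene of all leukocytes, was at 84.9 CPM against 9.78 and 3.60. Their part in the leukocyte subunits was not tested.

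Perivascular-like cells, the contractile cells around vessels, were tested in the 2 libraries with at least 20 of them (27 and 24 cells). Itga1 was at 771, 777, 762 and 829.8 CPM (7.16 ± 0.19, adjusted p = 0.00321) and Itgb1 at 1680, 1393, 1452 and 1214 (1.52 ± 0.18, adjusted p = 0.0265), the highest mean level of either in any named class. Itga7, the laminin receptor of muscle, was at 21.4, 55.1, 109.6 and 104 CPM from 4 to 24 UMIs (8.0 ± 0.55, adjusted p = 0.00806), and its highest mean in another class was 11.1 CPM. Itga10, of another collagen receptor, was at 58.9, 60.1, 82.2 and 109.8 CPM (3.21 ± 0.37, adjusted p = 0.0246). Lamb2, a chain of muscle and nerve laminins, was at 177, 276, 256 and 268 CPM (2.35 ± 0.20, adjusted p = 0.0128), and Nid1 at 379.9, 461, 475 and 671 (1.60 ± 0.16, adjusted p = 0.0182). After thinning to 2000 UMIs 0 of the 12 calls passed (and 0 of all genes), and without a filter on low counts 5 did.

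Glia-like cells, which wrap axons, were tested in the Din-KO libraries (20 and 45 cells). Itgb8, a partner of Itgav that binds latent TGF-beta, was at 167, 134, 178 and 392 CPM (5.37 ± 0.42, adjusted p = 0.0087), and its highest mean in another class was 10.5 CPM. Itga6 was at 325, 379.9, 444 and 605 CPM (6.31 ± 0.24, adjusted p = 0.00376) and Itgb4 at 132, 146, 106 and 113 (5.78 ± 0.39, adjusted p = 0.00697), the pair also found in epithelium-like and endothelium-like cells. Lama2, the alpha chain of nerve and muscle laminins, was at 132, 230.2, 139 and 242 CPM (2.24 ± 0.21, adjusted p = 0.0124), Lamb1 at 193, 545, 399.9 and 619 (1.89 ± 0.17, adjusted p = 0.012) and Lamc1 at 272, 407, 322 and 504 (2.42 ± 0.20, adjusted p = 0.01). After thinning to 2000 UMIs 3 of the 17 calls passed. The glia-like clusters differed, in levels pooled over libraries and without a test. Itga1 was at 969 and 130 CPM in them and Itgb8 at 110 and 389. The first of these Itga1 levels lies above the 782 CPM of the perivascular-like cluster.

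Leukocytes carried Itgb2, the common beta subunit of their integrins, with its alpha partners. In monocyte or dendritic-like cells Itgb2 was at 404, 462, 568 and 299.8 CPM (8.96 ± 0.29, adjusted p = 7.69e-12), Itgal, of lymphocyte and monocyte adhesion, at 361, 209, 535 and 312 (9.50 ± 0.33, adjusted p = 1.27e-11) and Itgam, of complement receptor 3, at 267, 392, 333 and 327 (8.91 ± 0.30, adjusted p = 8.45e-12). In neutrophil-like cells Itgb2 was at 146, 300.0, 325 and 313 CPM and Itgam at 225, 442, 347 and 368, and their ranges overlap those of the monocyte or dendritic-like cells. Macrophage-like cells lay lower and did not overlap with either for Itgb2, at 45.3, 58.3, 71.7 and 91.3 CPM, or for Itgam, at 104, 79.9, 92.4 and 102. Elsewhere Itgal was at 11.5 ± 6.13 CPM in B-like, 46.4 ± 11.7 in macrophage-like, 83.2 ± 47.2 in neutrophil-like and 142 ± 83.4 in T or NK-like cells, where each class overlapped in range with its neighbour, the first pair aside, and no test was run between them. Itgax, known from dendritic cells, was at 7.21, 16.1, 17.8 and 18.6 CPM in monocyte or dendritic-like cells from 1 to 9 UMIs (7.14 ± 0.81, adjusted p = 1.38e-06).

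Itga4 and Itgb7 form a homing receptor of lymphocytes. Itga4 was at 635, 392, 737 and 416 CPM in monocyte or dendritic-like cells (2.68 ± 0.21, adjusted p = 8.04e-08) and Itgb7 at 57.7, 107, 82.1 and 122 (6.61 ± 0.32, adjusted p = 4.43e-10). In T or NK-like cells Itgb7 was at 137, 175, 153 and 190.4 CPM, above every monocyte or dendritic-like value, and Itga4 at 186, 245, 274 and 271, below every one of them. In B-like cells Itga4 was at 139.6, 166, 167 and 190.3 CPM and Itgb7 at 3.88, 11.1, 8.34 and 18.2. The B-like cluster led by Iglc1 and Ms4a1, genes of mature B cells, had Itgal at 21.7 CPM and Itgb7 at 20.7, and the cluster led by Vpreb3, a gene of precursors, had 1.87 and 2.80. Itgae, the partner of Itgb7 in lymphocytes of epithelia, was at 0, 7.01, 13.2 and 23.1 CPM in T or NK-like cells (82 UMIs in all cells) and Itgb3 at 32.3, 84.1, 29 and 69.3 from 4 to 12 UMIs.

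Macrophage-like cells had Itga9 at 77, 118, 90.7 and 125 CPM (3.50 ± 0.24, adjusted p = 3.86e-06) and Itgb5, a partner of Itgav, at 153, 272, 169 and 257 (1.65 ± 0.23, adjusted p = 0.000272). The replicates 2 were higher than the replicates 1 for both. Itgb5 was not particular to these cells, since its levels in dental follicle-like cells, given below, lay within the same range. In macrophage-like cells Nid1 was lower than in mesenchyme-like cells (−4.05 ± 0.28, adjusted p = 4.53e-06), and Nid2 did not pass (−0.18 ± 0.15, adjusted p = 0.319). Of the adaptor and signalling genes of integrins 10 of 26 were higher and 9 lower, near the 30% and 36.5% of all genes. The median was 0.01 beside −0.10 over all genes. Fermt3, the kindlin of blood cells (7.20 ± 0.19, adjusted p = 3.26e-08), Apbb1ip (6.04 ± 0.26, adjusted p = 3.36e-07) and Parvg (5.71 ± 0.25, adjusted p = 3.39e-07) were the highest and Parva, the parvin of other cells, the lowest (−3.12 ± 0.15, adjusted p = 5.04e-07).

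**Figure D3:**
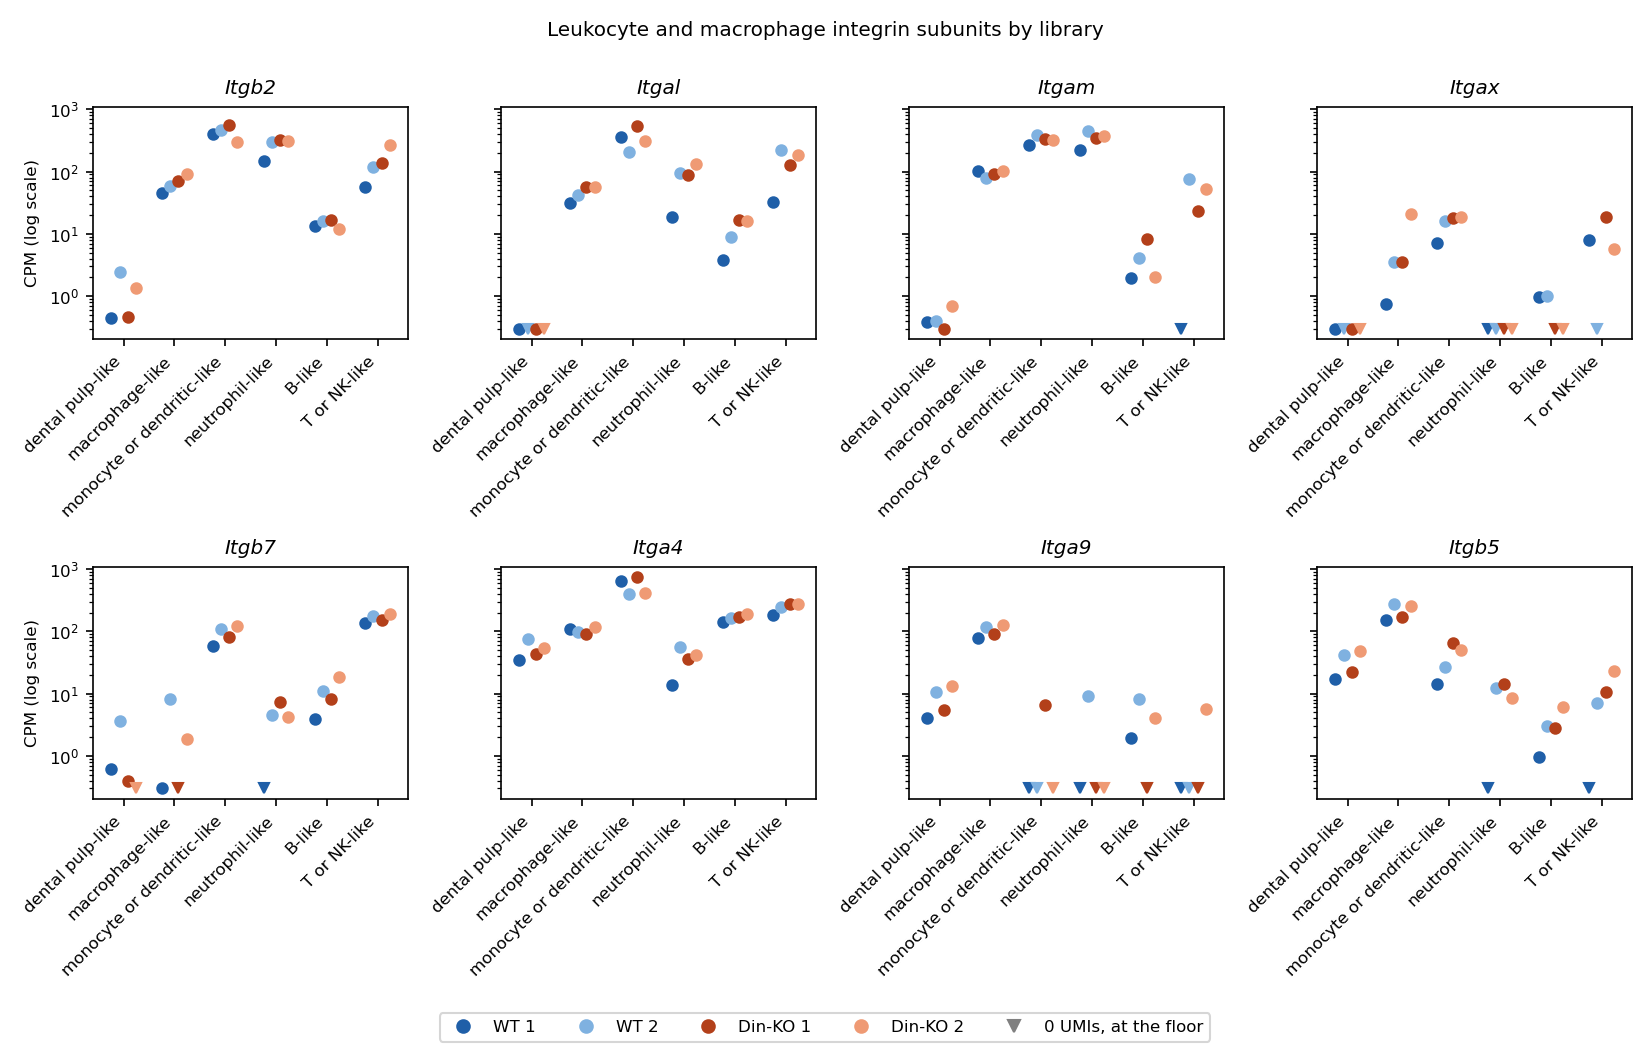
CPM on a log axis of 8 integrin subunits in dental pulp-like cells and 5 leukocyte classes, with 1 point per library (triangles: 0 UMIs, and values under 0.3 are drawn at 0.3). Itgb2 and Itgam are highest in monocyte or dendritic-like and neutrophil-like cells, Itgb7 in T or NK-like cells, and Itga9 and Itgb5 in macrophage-like cells.

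Itgal, Itgam, Itgax and Itgad lie on chromosome 7 in this order. Itgam spans chr7:128062640-128118491 (GRCm38), Itgax starts 11056 bases after its end, Itgad 3719 bases after Itgax, and Itgal ends 727502 bases before Itgam. The 3 close neighbours differed in UMIs over all cells, with 2871 of Itgam, 177 of Itgax and 4 of Itgad. Itga2 and Itga1, 20996 bases apart on chromosome 13, were both detected in glia-like cells, at 64.7 ± 20.5 and 523 ± 160.4 CPM, and parted in perivascular-like cells, at 1.53 ± 3.05 and 785 ± 30.5.

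Within the mesenchyme the members separated follicle, pulp and odontoblast-like cells. Over all mesenchyme-like cells Itga8 was at 21.7, 10.2, 15.5 and 10.8 CPM, Itga10 at 7.86, 16.8, 6.20 and 10.3, Itga11 at 13.1, 75.4, 14.9 and 57.8, Lama1 at 17, 26.4, 27.4 and 26.5, Lama2 at 30.8, 65.1, 25.5 and 45.8 and Lamc3 at 10.8, 41.2, 11 and 32.1. Itga10, Itga11, Lama2 and Lamc3 were higher in the replicates 2 of both genotypes, which held fewer dental pulp-like cells, and Itga8 was lower there. The part of this make-up in these levels was not tested. Each sub-class was compared with the remaining mesenchyme-like cells in the same way. Between dental pulp-like and the remaining cells Itga10 (−0.12 ± 0.35, adjusted p = 0.803) and Lama2 (−0.26 ± 0.21, adjusted p = 0.344) did not pass, while Itga8, Itga11 and Lamc3 did. In dental follicle-like cells, which form the attachment of the tooth, 13 of 31 members were higher and 6 lower (17.2% and 16.8% of all genes). In dental pulp-like cells 5 of 31 were higher and 14 lower (19.8% and 22.5%), and in odontoblast-like cells 8 of 30 and 13 (17% and 19.9%). Each sub-class is part of what the other two are compared with, so these counts are not independent of each other.

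Dental follicle-like cells had Itgb5 at 192, 267, 172 and 236 CPM (3.34 ± 0.11, adjusted p = 1.43e-05) and Itga11, a collagen receptor of fibroblasts, at 67, 118, 66.1 and 89.9 (2.88 ± 0.57, adjusted p = 0.00931), whose call was lost without Din-KO replicate 1. Itga11 was not confined to these cells, being at 73.4 CPM in the odontoblast-like cluster led by Bglap and Dspp, described below. Nid1 was at 369, 633, 432 and 513 CPM (2.52 ± 0.11, adjusted p = 2.96e-05) and Lamb1 at 200.5, 286, 233 and 239 (1.78 ± 0.09, adjusted p = 3.84e-05). Itga9 (2.18 ± 0.17, adjusted p = 0.000178), Lama2 (1.32 ± 0.24, adjusted p = 0.00588) and Itgb1 (0.72 ± 0.07, adjusted p = 0.000467) were higher too, and Itga4 was lower (−2.64 ± 0.30, adjusted p = 0.000925). The follicle-like cluster led by Spp1, Mmp13 and Ibsp, genes of mineralizing tissue (207 cells), had Itgb5 at 355 CPM and Itgav at 128, and Nid1 at 87.4, where the other follicle-like clusters had Nid1 at 638 and 499. Of integrin ligands that are no laminin 9 of 15 were higher and 2 lower (17.2% and 16.8% of all genes). The median was 1.12 beside −0.03 over all genes. The largest changes were those of Thbs2 (4.61 ± 0.23, adjusted p = 4e-05), Npnt, which encodes nephronectin (4.54 ± 0.19, adjusted p = 2.61e-05), Spp1, which encodes osteopontin (4.03 ± 0.94, adjusted p = 0.017), and Vcam1, the ligand of Itga4 with Itgb1 (3.36 ± 0.21, adjusted p = 7.4e-05).

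Dental pulp-like cells had Itga8, a receptor subunit for nephronectin, at 30.3, 31.5, 24.8 and 26.8 CPM (2.12 ± 0.17, adjusted p = 6e-05), and Itga8 ranged over pulp-like clusters from 5.69 CPM in the one led by Smoc2 to 48.9 in the one led by Cldn10. Over each kind as a whole the nidogens were opposed between pulp and follicle. Nid2 was at 58, 98.8, 53.4 and 53.7 CPM in dental pulp-like cells (1.56 ± 0.14, adjusted p = 0.000102) and at 19, 23.6, 18.6 and 27.9 in dental follicle-like cells (−0.86 ± 0.23, adjusted p = 0.0261). Nid1 was at 76.7, 160.1, 77.3 and 135 CPM in dental pulp-like cells (−1.45 ± 0.06, adjusted p = 3.98e-06), below every follicle value given above. This did not hold for every cluster. The pulp-like cluster led by Smoc2 had Nid1 at 199 CPM and Nid2 at 8.06. The follicle-like cluster led by Spp1, Mmp13 and Ibsp had them at 87.4 and 32.5. Lama4 (0.51 ± 0.08, adjusted p = 0.00241), Lamb2 (0.68 ± 0.20, adjusted p = 0.0294) and Itga2b (1.34 ± 0.23, adjusted p = 0.00316) were the other members higher in pulp. Lama4 was not particular to pulp, being higher in dental follicle-like cells too, by more (1.16 ± 0.21, adjusted p = 0.00569).

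Odontoblast-like cells, which secrete dentin, had Itga4 at 240.1, 176, 234 and 159.6 CPM (2.23 ± 0.14, adjusted p = 0.000103), and Itgav was higher as well (0.98 ± 0.11, adjusted p = 0.000923). Itga2 had the largest fold change there, at 7.83, 17.5, 4.44 and 11.8 CPM (5.37 ± 0.54, adjusted p = 0.000563), and this gene was named after its value was seen. Itga4 was at 257 CPM in the cluster led by Dkk1 and Dmp1 (421 cells) and at 36.6 in the cluster led by Bglap and Dspp, genes of mature odontoblasts (137 cells). There Lamc3 was at 16.2 and 76.7 CPM and Itga10 at 12 and 55.2. Itga4 was not confined to odontoblast-like cells. Among the other mesenchyme-like clusters the highest levels were 150, 137 and 112 CPM, above that of the cluster led by Bglap and Dspp. Over all odontoblast-like cells Itga10 was at 6.45, 45.1, 8.88 and 24.6 CPM (1.71 ± 0.50, adjusted p = 0.0364), higher in the replicates 2, and its call was lost without WT replicate 2 and without either Din-KO replicate. Itga8 (−4.10 ± 0.28, adjusted p = 0.000103), Lama4 (−3.17 ± 0.17, adjusted p = 7.2e-05) and Nid1 (−2.42 ± 0.24, adjusted p = 0.000511) were lower. Of other basement membrane genes 12 of 17 were lower and 1 higher (19.9% and 17% of all genes). The median was −2.51 beside −0.05 over all genes.

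Between genotypes edgeR called no member in a fit without a replicate block. Din-KO was compared with WT, 2 libraries against 2, in mesenchyme-like cells, their 3 sub-classes and the 5 other classes with at least 20 cells in every library, which gave 187 tests, and 3 members were tested in no class. In mesenchyme-like cells 0 of 32 members passed, beside 0% of 15192 genes, and at an unadjusted p under 0.05 there were 0 members and 155 genes. The median log2 fold change was −0.14 over the members and −0.02 over all genes, and 21 of the 32 members were negative, as were 54.5% of all genes. Among the kinds of mesenchyme 0 of 28 passed in dental pulp-like cells (0.0148% of all genes), 0 of 25 in dental follicle-like (0.0157%) and 0 of 20 in odontoblast-like cells (0%). In the other classes it was 0 of 23 in epithelium-like (0%), 0 of 26 in endothelium-like (0.0537%), 0 of 17 in macrophage-like (0.0641%), 0 of 9 in monocyte or dendritic-like (0%) and 0 of 7 in B-like cells (0%). DESeq2 called 0 members in each class too. In simulated counts the edgeR fit of mesenchyme-like cells between genotypes called 3% of genes changed 2-fold and 60% of those changed 4-fold. The lack of calls is therefore no evidence that members did not change. Across classes the unadjusted p was under 0.05 in 1 test in each of the pulp, epithelium and monocyte or dendritic-like cells, 2 in follicle and 3 in each of the endothelium and macrophage-like cells.

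Whether the genotype effect differed between mesenchyme-like cells and the epithelium, endothelium, macrophage, monocyte or dendritic and B-like cells was tested as an interaction, and 0 members and 0% of genes passed in each, with 1, 4, 1, 0 and 2 members at an unadjusted p under 0.05. The libraries differed in sex. Cells with at least 3 UMIs of Xist and none of 4 Y-linked genes were 2581 of 2628 and 756 of 794 mesenchyme-like cells in WT but 1078 of 2986 and 272 of 596 in Din-KO, so sex and genotype cannot be told apart over all cells. With these cells alone 0 members were called in the 8 classes that could be tested.

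Itgb1 was the 1 member of 32 with both Din-KO libraries under both WT libraries in mesenchyme-like cells, where 6.29% of all genes were so placed. It was at 593 and 528 CPM in WT and 410.0 and 445 in Din-KO (−0.43 ± 0.18, adjusted p = 1 in edgeR). The estimate was negative in 9 of 9 classes, from −0.22 ± 0.47 in B-like to −0.53 ± 0.35 in monocyte or dendritic-like cells, and the libraries did not overlap in 6 of them. Of all genes, 11.4% were placed in this way in dental pulp-like, 8.54% in dental follicle-like, 6.42% in odontoblast-like, 14.6% in endothelium-like and 15.8% in monocyte or dendritic-like cells. These classes come from the same 4 libraries and do not repeat the comparison. WT replicate 1 was the highest library in 9 of 9, and over 15 settings the mesenchyme-like estimate ran from −0.52 to −0.32, the last without WT replicate 1.

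**Figure D4:**
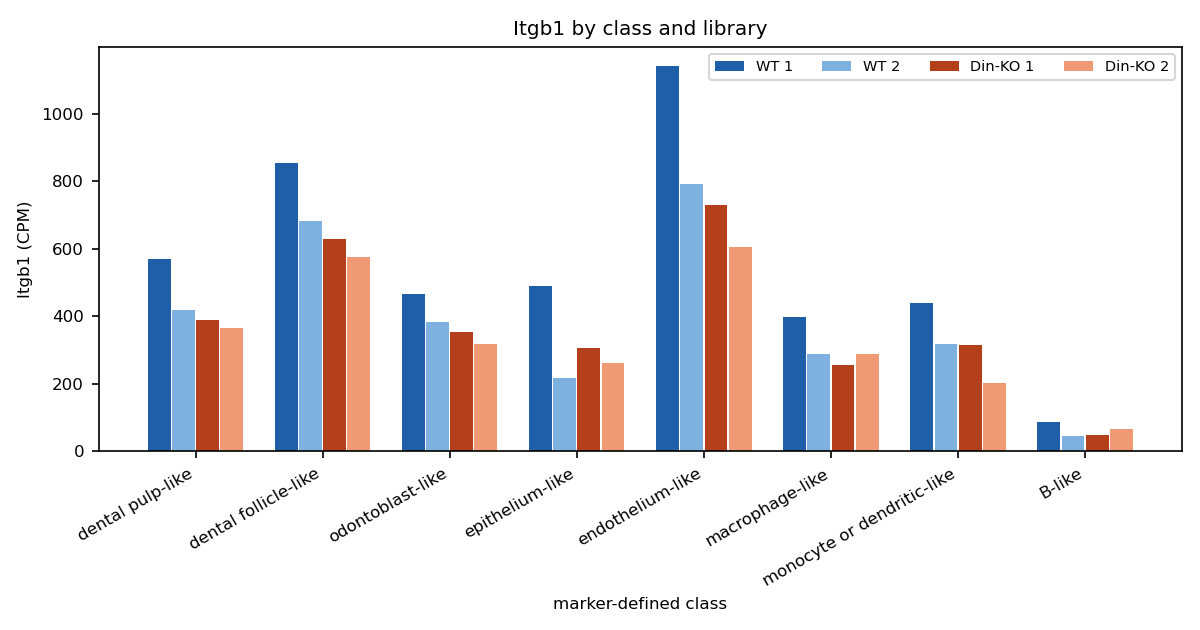
Itgb1 in CPM (bars from 0, 1 per library) in the classes tested between genotypes, with the mesenchyme as its sub-classes. WT replicate 1 is the tallest bar in every class, and both Din-KO bars are below both WT bars in the 3 mesenchymal sub-classes, in endothelium-like and in monocyte or dendritic-like cells.

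The other 4 of the 5 most negative estimates in mesenchyme-like cells were those of Itgb3, Itga10, Lama3 and Lama2, with an adjusted p of 1 for each. Itgb3 was at 2.33 and 7.36 CPM in WT and 1.37 and 3.11 in Din-KO (−1.18 ± 0.74). Itga10 was at 7.86 and 16.8 against 6.20 and 10.3 (−0.62 ± 0.49), Lama3 at 0.682 and 2.18 against 0.577 and 1.43 (−0.59 ± 0.83) and Lama2 at 30.8 and 65.1 against 25.5 and 45.8 (−0.47 ± 0.48). In all 4 the genotypes overlap and the replicates 2 lie above the replicates 1 of their genotype.

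The 5 most positive were Itgb8, Itga6, Lamb3, Lama5 and Itgav. Itgb8 was at 2.66 and 4.22 CPM in WT and 5.99 and 5.63 in Din-KO (0.73 ± 0.36), and Itga6 at 3.77 and 4.03 against 4.29 and 7.65 (0.56 ± 0.39). These and Lama1, at 17 and 26.4 against 27.4 and 26.5 (0.28 ± 0.28), were the 3 members whose Din-KO values all exceeded the WT values, a placing that 11.6% of all genes had. Lamb3 was at 0.287 and 2.24 CPM against 0.469 and 3.36 (0.53 ± 1.33), Lama5 at 0.179 and 0.512 against 0.397 and 0.504 (0.43 ± 0.84) and Itgav at 28.6 and 57.8 against 35.5 and 76.9 (0.34 ± 0.52). Without Din-KO replicate 2 Lamb3 was at −1.36 and Itgav at −0.31 on the log2 scale, and both were negative without WT replicate 1 as well. Without WT replicate 2 Lama3 was at 0.41, Lama2 at 0.16 and Itga10 at 0.018.

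**Figure D5:**
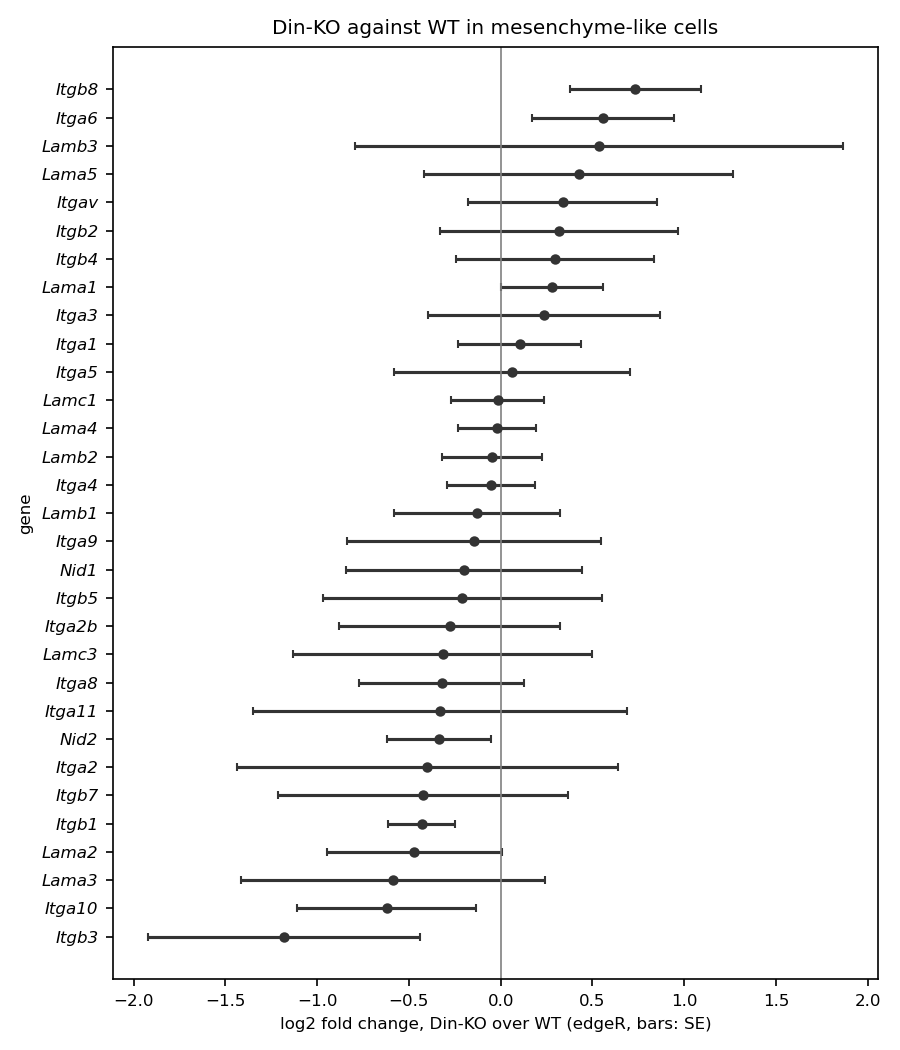
Log2 fold change of Din-KO over WT in mesenchyme-like cells for 31 of the 32 members tested (points: edgeR estimate, bars: SE, vertical line: no change). Estimates lie between −1.18 for Itgb3 and 0.73 for Itgb8, and none passed the adjusted threshold.

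In the other classes 11 tests had an unadjusted p under 0.05 and none an adjusted one. In dental follicle-like cells Itga4 was at 23.5 and 27.3 CPM in WT and 11.1 and 13.4 in Din-KO (−1.11 ± 0.24, adjusted p = 0.731) and Itgb3 at 8.75 and 14.1 against 2.55 and 4.62 (−1.71 ± 0.42, adjusted p = 0.94), neither overlapping. With Itgb1 they were 3 of 25 members with both Din-KO values below the WT values, beside 8.54% of all genes, and 4 members (Itga1, Itga3, Lama1 and Lama4) had both above, beside 15.1%. In dental pulp-like cells Itgb8 was at 1.34 and 3.63 CPM against 4.15 and 12.4, from 9 to 63 UMIs (1.76 ± 0.68, adjusted p = 1). In epithelium-like cells Lamb1 was at 29.4 and 16 CPM against 41.7 and 46.3 (0.87 ± 0.31, adjusted p = 1), and the secretory ameloblast-like cells, in which Lamb1 was low, were 23 of 145, 89 of 122, 55 of 178 and 80 of 135 epithelium-like cells. The part of this make-up in the result was not tested. Both Din-KO values lay above both WT values for 8 of 23 members in epithelium-like cells and below for 0 (17.8% and 3.27% of all genes). In dental pulp-like cells these were 1 of 28 and 5 (10.5% and 11.4%), and in endothelium-like cells 4 of 26 and 4 (12% and 14.6%). In odontoblast-like cells they were 2 of 20 and 1 (14.3% and 6.42%). Monocyte or dendritic-like cells had 1 of 9 and 1 (13.7% and 15.8%) and B-like cells 2 of 7 and 0 (10% and 13.4%).

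Leukocyte subunits were among these tests in 2 classes. In macrophage-like cells Itgb2 was at 45.3 and 58.3 CPM in WT and 71.7 and 91.3 in Din-KO (0.72 ± 0.26, adjusted p = 1), and Itgal at 31.7 and 42.2 against 55.6 and 56.1 (0.69 ± 0.27, adjusted p = 1), without overlap. These were 2 of 17 members with both Din-KO values above the WT values, beside 9.29% of all genes, and 4 members (Lama2, Lamb1, Lamb2 and Nid1) had both below, beside 17.2%. Itgax was at 0.759 and 3.59 CPM against 3.49 and 20.9, from 4 to 29 UMIs (2.75 ± 1.13, adjusted p = 1), and it passed without Din-KO replicate 1 (3.77, adjusted p = 0.00588), where the lone Din-KO library is assumed to vary like the WT libraries. In these cells the 10 neutrophil markers summed to 33.8 and 105 CPM in WT and 590.3 and 57.1 in Din-KO, and the 8 monocyte or dendritic markers to 636 and 1002 against 417 and 726, with no marker of either list at 0 throughout. Their part in the result was not tested.

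In endothelium-like cells Itgal was at 3.40 and 5.61 CPM in WT and 11.4 and 18.6 in Din-KO (1.79 ± 0.46, adjusted p = 0.737), and Itgb2 at 2.78 and 6.32 against 8.04 and 22.4 (1.80 ± 0.65, adjusted p = 1). There the 8 T or NK markers summed to 0 in both WT libraries and to 12.4 and 8.70 CPM in Din-KO, with 2 of the 8 at 0 throughout, and the 8 monocyte or dendritic markers to 30.6 and 30.9 in WT and 55.5 and 124 in Din-KO. The 10 neutrophil markers went the other way, at 83.7 and 459 CPM in WT and 15.6 and 54.7 in Din-KO. The 8 macrophage markers summed to 532 and 53.3 CPM in WT and 512 and 80.8 in Din-KO, and the 7 B markers to 5.25 and 6.3 against 15.3 and 6.2. Their part in the result was not tested. Itga8 was at 11.1 and 4.91 CPM against 2.85 and 3.73 (−1.41 ± 0.58, adjusted p = 1). Without WT replicate 1, Itga11 (−5.09) and Itgb5 (−1.74) passed in endothelium-like cells, where the lone WT library is assumed to vary like the Din-KO libraries, and the 8 mesenchyme markers there summed to 689 and 3540 CPM in WT and 622 and 372 in Din-KO. Their part in the result was not tested. In monocyte or dendritic-like cells Itgb5 was at 14.4 and 26.8 CPM against 64.4 and 49.6, from 2 to 29 UMIs (1.43 ± 0.51, adjusted p = 1).

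Genes that act with the members were not called between genotypes in mesenchyme-like cells either. Of adaptor and signalling genes 0 of 26 passed (median log2 fold change −0.01), from −0.28 ± 0.47 for Tln2, a talin, and −0.25 ± 0.62 for Apbb1ip to 0.48 ± 0.42 for Ptk2b and 0.59 ± 0.46 for Fermt3. Of other basement membrane genes 0 of 19 passed (−0.06), from −0.65 ± 0.88 for Col4a6 and −0.55 ± 1.23 for Ntn1 to 1.28 ± 1.05 for Egflam and 1.64 ± 0.79 for Col18a1. Of ligands that are no laminin 0 of 16 passed (−0.12), from −0.57 ± 0.30 for Spp1 to 1.34 ± 0.98 for Icam1, and of the anchoring genes 0 of 5 (−0.06). Of the small GTPases that the study assayed 0 of 4 passed (−0.03), Cdc42 at −0.28 ± 0.27, Rhoa at −0.05 ± 0.20, Nras at −0.02 ± 0.30 and Rac1 at 0.05 ± 0.19. The study measured the GTP-bound, active proteins in mesenchymal stem cells isolated from incisors. RNA levels in mesenchyme-like cells do not bear on that activity.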

How the data were processed

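UMI counts per gene and cell barcode are as the authors deposited them, unnormalized. The submitters' processing notes name bcl2fastq, Cell Ranger and the builds mm10 and GRCm38. Kept cells had 1000 genes or more, with mitochondrial UMIs up to 10% and hemoglobin UMIs up to 3%. Seurat 5.3.0 integrated the 4 libraries (2000 variable genes without the members, 30 components, cell cycle regressed, resolution 1). Clusters were named from marker lists, with a scoring rule set with the data in hand, and clusters of 183 and 157 cells stayed unnamed. Scrublet (scanpy 1.11.5) called 0.946% of cells doublets, which were kept. Free RNA was not removed. Summed counts were tested in edgeR 4.0.16 (TMM, filterByExpr, quasi-likelihood, Benjamini-Hochberg at 0.05), without a block between genotypes. Bias-adjusted deviances were chosen after seeing the data, since the default gave an infinite prior in small classes. DESeq2 1.42.0 was an alternative, and the edgeR fits were tested on simulated data. There the genotype fit of mesenchyme-like cells called 3% of genes changed 2-fold and 60% of those changed 4-fold. The fit of epithelium-like against mesenchyme-like cells called 63% and 99%. Members at 10 CPM or more are given per library in the class of their highest level, with the 5 largest genotype estimates in each direction and at most 4 genes of another list. Members and lists were chosen with earlier results of these data known. Gene coordinates are from GENCODE M21 (GRCm38). The values of 1 member are not reported here.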

Additional observations from a re-analysis of the deposited data

Results flagged for a closer look

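Itgax was at 31.4 CPM in a cluster of 183 cells that no comparison used, because its markers gave no class a clear lead (leading genes Mcpt4, H2-Eb1 and Acp5). The level is pooled over 76, 25, 54 and 28 cells in WT replicates 1 and 2 and Din-KO replicates 1 and 2, and the highest mean in a named class was 14.9 CPM. Itgb7 was at 77.4 CPM, Itgam at 117 and Itgae at 11.9 in the same cells.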

How the results depend on the processing

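Of the counts and map values recomputed under the alternatives, 277 stayed within 1.5 times and 19 moved. The 277 include counts that stayed at 0, as most of those between genotypes and all of those for the interaction did. Fits that rarely call a change could hardly move them. Calls against mesenchyme-like cells moved in perivascular-like cells from 12 to 5 without a filter on low counts, and with cells thinned to 2000 UMIs from 12 to 0, in glia-like cells from 17 to 3, in neutrophil-like cells from 18 to 11 and in T or NK-like cells from 17 to 7. Leaving out 1 library gave 4 to 18 calls in neutrophil-like cells (11 without Din-KO replicate 2), 6 to 12 in secretory ameloblast-like cells, and between genotypes 0 to 2 in endothelium-like and 0 to 1 in macrophage-like cells, where the lone library left in a group is assumed to vary like the other group. Perivascular-like, glia-like and T or NK-like cells were tested in 2 libraries, and none of these could be left out. The map put 1 member in B-like cells with the Din-KO libraries alone. At resolution 0.5, where no monocyte or dendritic-like cluster formed, it put 5 members in macrophage-like, 0 in monocyte or dendritic-like and 2 in B-like cells. With all named classes it put 3 in mesenchyme-like and 5 in endothelium-like cells and left 1 under 10 CPM. Of the named fold changes 578 kept direction and side of the threshold, 26 fell short of it, 1 newly passed and 11 reversed, all when 1 library was left out. Between genotypes in mesenchyme-like cells Lamb3 ran from −1.36 to 2.55, Itgav from −0.31 to 0.93, Itga10 from −1.05 to 0.018, Lama2 from −0.94 to 0.16 and Lama3 from −1.27 to 0.41. In secretory ameloblast-like cells Itga6 ran from −0.018 (without Din-KO replicate 2) to 0.32, Itgb1 from −0.16 to 0.025 (without Din-KO replicate 1) and Nid1 from −1.30 to 0.21 (without WT replicate 2). The cause of these shifts was not tested. Replicate numbers pair the libraries only by number, with r = 0.823 over 15192 genes between the replicate differences of WT and Din-KO. With the replicate block 1 member passed in dental pulp-like cells (Itgb8, 1.65, adjusted p = 0.0297) and 1 in macrophage-like cells (Itgax, 2.41, adjusted p = 0.0494). DESeq2 called no member in any class. Among all genes the calls between genotypes were 0 in mesenchyme-like, 2 in pulp-like, 2 in follicle-like, 0 in odontoblast-like, 6 in endothelium-like, 7 in macrophage-like and 0 in B-like cells. In this order they were 255, 179, 85, 14, 158, 222 and 18 with the replicate block, 17, 19, 46, 3, 56, 57 and 4 with DESeq2 (and 6 in epithelium-like cells), and with 1 library left out up to 7, 77, 17, 1, 155, 116 and 14. Without a filter on low counts they were 64 in pulp-like, 25 in endothelium-like and 40 in macrophage-like cells. Against mesenchyme-like cells thinning took all-gene calls from 5348 to 2563 in epithelium-like, 8475 to 4893 in endothelium-like, 687 to 0 in perivascular-like, 1410 to 94 in glia-like, 7528 to 4582 in monocyte or dendritic-like, 4849 to 2627 in neutrophil-like and 1743 to 545 in T or NK-like cells. The default edgeR deviances, chosen as an alternative after seeing the data, called 18 members in perivascular-like, 21 in glia-like and 21 in T or NK-like cells.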
